A study of Mus musculus with 26 samples.

Results

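Kinesins are motor proteins that step along microtubules or take them apart at their ends, powered by ATP. In dividing cells they build the spindle, move and align chromosomes and organise the midzone where cytokinesis takes place, and in other settings they carry vesicles, organelles and RNA. The MII oocyte holds a metaphase spindle and carries messages made while it grew, and after fertilisation the 1-cell embryo completes meiosis, forms pronuclei and prepares its first mitosis on largely maternal RNA. The genes described here are the 39 rows of a count table of 55401 Ensembl genes that map in GENCODE vM21 to a protein-coding symbol made of Kif and a digit. Of these, 31 had a count in at least 13 of 26 libraries and are summarised here. Kif1bp meets the rule by its symbol but encodes a binding partner that inhibits some kinesins and has no motor domain.

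The libraries are RNA-seq of mouse MII oocytes and 1-cell embryos, with oocytes taken after superovulation from B6D2F1 females 8 weeks old and embryos made from B6D2F1 parents by in vitro fertilisation. In the first numbered series, 7 libraries came from embryos kept for 10 h in a c-Myc inhibitor, from 2 h after sperm and oocytes were mixed, and 7 from control embryos. The inhibitor, which the figures label by its code name, is a thiazolidinone used to block the activity of c-Myc, a transcription factor that binds DNA with its partner Max, and the sources used here do not give its dose. In the second series, 4 libraries came from embryos kept for 10 h in 100 µg/ml alpha-amanitin, a toxin that blocks RNA polymerase II, from 1 h after mixing, 4 from control embryos and 4 from MII oocytes. The labels give every embryo an age of 10 h and every oocyte an age of 0 h. They describe the source as single cell, while the number of embryos or oocytes in a library, the donors and any batches are not given, so SD and p-values measure the spread between libraries.

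Libraries of the first series held 20566278 to 27266040 counts, and those of the second 5371602 to 31540627. A library's limit for a count of 0, taken as 3 counts, was 0.112 to 0.153 CPM (counts scaled to the library's total) in the first series, while the second had limits of 0.0919 to 0.550 CPM. These limits cover counting error only. Levels are CPM with library totals scaled by TMM, a correction for genes that take up a large share of a library, and levels of different genes are compared only per kb of exon. All 10 oocyte markers that were fixed, among them Gdf9, Mos and Zp3, had counts in every group. Of 10 cumulus and granulosa markers 6 had a count in c-Myc inhibitor embryos, 9 in their controls, 4 in alpha-amanitin embryos, 6 in their controls and 8 in oocytes, and the list summed to 4.94 to 25.8 CPM per library apart from control embryo replicate 1 of the second series at 74.1 CPM. Of that list, Cyp19a1 had counts in every library, with group means of 10.8 to 17.25 CPM. Of 8 sperm markers, Tnp1, Tnp2 and Smcp were at 0 in all groups, and the list summed to 0 to 22.3 CPM. Prm2, from the same list, had counts in every group, also in all 4 oocyte libraries, with a mean there of 10.9 CPM. Some libraries stood apart. Alpha-amanitin replicate 3 had the lowest total, 5371602 counts, and replicates 1 and 3 of that group had 11780 and 11480 CPM in genes that had no count in the oocytes, where the other embryos of the second series had 927 to 5078 CPM.

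Promoter sequences are shown for Kif2a and Kif11, whose library ranges did not overlap between an inhibitor group and its controls (below). That of Kif23, the highest per kb, is also shown. Windows of members that were separate only in a comparison with oocytes are not shown. The windows are RefSeq promoter sequences (GRCm38.p6), 250 bases before to 50 after the annotated start, written 5′ to 3′ on the gene's strand. They are the windows of Kif11 (chr19:37376132-37376431, plus strand), which builds the bipolar spindle, Kif23 (chr9:61946750-61947049, minus strand), a motor of the cleavage midzone, and Kif2a (chr13:107022065-107022364, minus strand), a depolymeriser of microtubule ends. Capitals mark a CHR element (TTTGAA or TTCGAA, either strand), an element known from promoters of cell cycle genes, and a CCAAT box (CCAAT, either strand).
Kif11 promoter: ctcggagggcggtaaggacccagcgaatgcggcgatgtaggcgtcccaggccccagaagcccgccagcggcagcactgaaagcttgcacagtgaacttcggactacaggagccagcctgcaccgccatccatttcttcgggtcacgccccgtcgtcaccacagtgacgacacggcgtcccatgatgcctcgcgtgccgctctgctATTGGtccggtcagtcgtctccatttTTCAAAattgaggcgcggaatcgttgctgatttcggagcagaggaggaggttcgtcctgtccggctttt
Kif23 promoter: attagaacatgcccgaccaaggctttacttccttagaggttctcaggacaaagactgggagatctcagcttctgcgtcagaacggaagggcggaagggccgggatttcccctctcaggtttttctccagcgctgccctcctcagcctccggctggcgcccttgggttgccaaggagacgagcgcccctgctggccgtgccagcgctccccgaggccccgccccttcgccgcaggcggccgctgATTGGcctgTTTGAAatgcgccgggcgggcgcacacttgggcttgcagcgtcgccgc
Kif2a promoter: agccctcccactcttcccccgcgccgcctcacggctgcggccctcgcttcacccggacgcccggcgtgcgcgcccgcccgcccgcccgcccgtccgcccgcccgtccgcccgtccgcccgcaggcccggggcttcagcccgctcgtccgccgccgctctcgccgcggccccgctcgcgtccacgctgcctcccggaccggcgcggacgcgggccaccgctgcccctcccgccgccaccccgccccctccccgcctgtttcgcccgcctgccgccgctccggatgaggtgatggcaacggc
Both the Kif11 and the Kif23 window hold 1 CCAAT box and 1 CHR element, in that order, near the annotated start, and the Kif2a window shown holds neither. RefSeq windows were matched for 26 of the 31 summarised members (29 windows), and Kif13b, Kif1bp, Kif20a, Kif21b and Kif5b were not matched. A CHR element was present in the windows of 12 of the 26 members, against 21.7% of 27025 genes with a window. These were Kif2c, Kif4, Kif11, Kif14, Kif15, Kif18b, Kif20b, Kif22, Kif23, Kif24, Kif26b and Kif27, while the spindle motor Kif18a had none. Of these windows, those of Kif14, Kif2c and Kif27 started 1505, 3867 and 4175 bases from the GENCODE start of the gene. A CCAAT box was present in 12 of 26, against 41.1% of all genes. The E-box CACGTG, the site that c-Myc and Max bind, was in 0 of 29 member windows and in 7.15% of all 32851 windows. A match is a string of letters and not a measured site.

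Maternal messages can be held in store and later given a longer poly(A) tail through a U-rich element near the end of the 3′ UTR. The last 100 bases of the 3′ UTR were searched on the transcript strand in 30 of the 31 summarised members (GENCODE vM21 transcripts) for such an element, written in DNA letters as TTTTAT or TTTTAAT, and for the polyadenylation hexamer AATAAA or ATTAAA. Kif11 and Kif20b, in which both strings lay within 30 bases, are shown as examples with the strings in capitals. The sites are at chr19:37421830-37421859 and chr19:34975701-34975730 of GRCm38, plus strand.
Kif11 3′ UTR site: aattttttaaATTAAAttaTTTTAATtttt
Kif20b 3′ UTR site: tatataaTTTTAATtcAATAAAtatatcag
The element was present in 6 of 30 members (20%), namely Kif11, Kif18a, Kif20b, Kif26a, Kif26b and Kif27, and in 17.8% of 19981 protein-coding genes. The hexamer was present in 80.0% of the members and 78.4% of all genes, so neither string was clearly more frequent among the kinesins.

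The kinesin messages of the oocyte and 1-cell embryo were mainly those of cell division. The 39 genes held 0.384% of all counts, and their summed level was 3459 to 4277 CPM per library. Per kb of exon, the highest mean level over the 26 libraries belonged to Kif23 (chromosome 9, 61915905 to 61946774, GRCm38), the motor subunit of centralspindlin, at 92.0 CPM per kb. It was followed by Kif17 at 55.0, a motor known from dendrites and cilia, Kif14 at 53.8, which brings citron kinase to the midbody, Kif4 at 44.2, a chromosome-arm motor that partners Prc1, Kif20b at 40.4, a midbody motor, and Kif20a at 32.5 CPM per kb, which carries the chromosomal passenger complex to the midzone. All 4 members of the cytokinesis and midzone group were thus among the 6 highest. With the length of the longest coding transcript in place of all exons, Kif23, Kif17 and Kif14 kept ranks 1 to 3, while Kif22 was at rank 4 and Kif4 and Kif20a were at ranks 6 and 8.

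**Figure D1:**
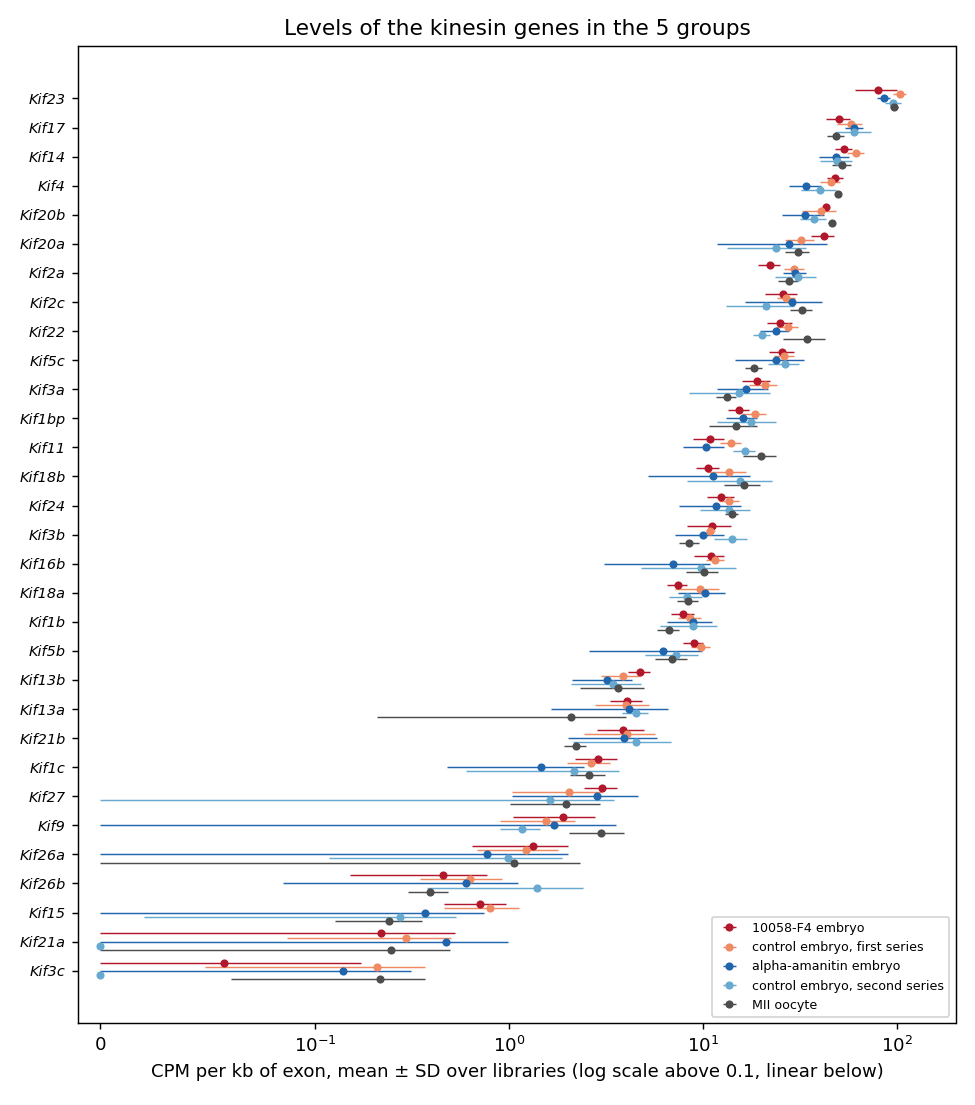
Level of each summarised kinesin gene in the 5 groups, in CPM per kb of exon on an axis that is logarithmic above 0.1 and linear below, with genes in order of their mean over 26 libraries. Points are group means and bars are SD over libraries (n = 7, 7, 4, 4 and 4), ending at 0 where they would cross it. Kif23 leads at 92.0 CPM per kb over all libraries, and Kif15, Kif21a and Kif3c lie below 1 in every group.

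Kif23 was first in every group, with means of 79.9 CPM per kb in c-Myc inhibitor embryos and 103 in their controls, and of 85.4 in alpha-amanitin embryos, 95.5 in their controls and 96.3 in oocytes. Its library range lay above that of the next gene in 4 of 5 groups, all but the c-Myc inhibitor embryos. Further down the order the ranges of neighbours overlapped for nearly all pairs. They were separate for 1 to 4 of the 30 neighbouring pairs in each group, so the order of most neighbours was not resolved beyond the spread. Among the 18 to 21 members above 50 CPM in a group, the median coefficient of variation between libraries was 13.9% in c-Myc inhibitor embryos and 12.1% in their controls. It was 25.2% in alpha-amanitin embryos, 24.2% in their controls and 12.8% in oocytes.

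Among the depolymerisers, Kif2a and Kif2c, which remove tubulin from microtubule ends at poles and kinetochores, averaged 27.5 and 26.8 CPM per kb, and Kif24, which trims centriolar microtubules, 13.0. Of the spindle and chromosome motors other than Kif4, Kif22, which pushes chromosome arms away from the poles, averaged 26.1, Kif11 13.8, Kif18b, which acts on astral microtubules, 13.1, and Kif18a, which damps chromosome movement at the plate, 8.71. Kif15, able to keep spindles bipolar beside Kif11, averaged 0.540 CPM per kb. Of the cargo motors other than Kif17, the heavy chains Kif5c and Kif5b averaged 24.5 and 8.16, and Kif3a and Kif3b, the paired motor subunits of intraflagellar transport, 17.6 and 10.9 CPM per kb. Kif21a and Kif3c, both best known from neurons, averaged 0.248 and 0.126.

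The 8 members below the limit of 13 libraries had few counts. Kif12, known from kidney epithelium, and Kif2b, a depolymeriser best known from testis, had no count in any of 26 libraries. Counts were present in 4 libraries for Kif19a and 5 for Kif6, both motors of motile cilia, in 7 for Kif1a and 8 for Kif5a, both neuronal cargo motors, and in 9 each for Kif7, a regulator of Hedgehog signalling at the cilium, and Kif28. Just inside the limit were Kif3c, with counts in 17 libraries, and Kif21a, with counts in 20. Their highest levels lay in a few libraries. Kif7 had 8.12 CPM and Kif28 9.32 CPM in control embryo replicate 1 of the second series, the library with the highest cumulus marker sum, and alpha-amanitin replicate 1, a library with many counts in genes not seen in oocytes, had 7.69 CPM of Kif5a, 5.39 of Kif1a and 5.36 of Kif28. In the first series, the highest levels of these genes were 3.67 CPM for Kif1a and 2.56 for Kif28 in c-Myc inhibitor embryos and 2.92 for Kif5a in control embryos, where 5 of 7 libraries had a count of Kif5a. The part of those libraries' other features in these levels was not tested. Kif7 also shares exon bases with Ticrr on the other strand, and Kif28 with Ahctf1 on the same strand, and over all libraries Kif7 had 139 counts beside 441367 for Ticrr, and Kif28 had 400 beside 126136 for Ahctf1.

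**Figure D2:**
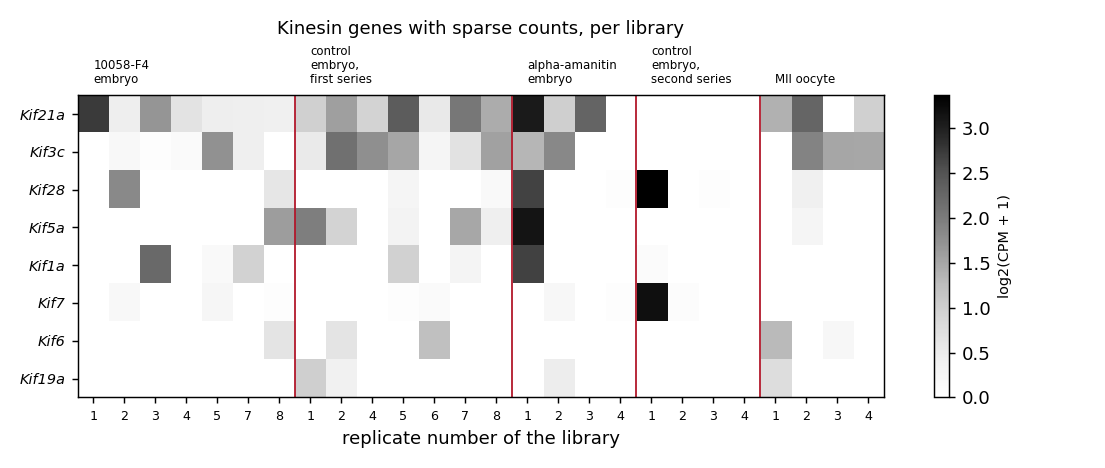
Levels of the kinesin genes with the sparsest counts in each of 26 libraries, as log2(CPM + 1) from white (0) to black, with replicate numbers along the bottom and red lines between groups. Kif12 and Kif2b, with no count, are not drawn. Kif21a and Kif3c are white in all 4 control embryos of the second series, and the darkest cells of Kif7 and Kif28 lie in control embryo replicate 1 of the second series, those of Kif5a and Kif1a in alpha-amanitin replicate 1.

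The first comparison asked what the c-Myc inhibitor did to kinesin messages over its 10 h. Kif2a and Kif23 were lower and Kif20a was higher than in control embryos, with log2 fold changes of -0.41, -0.36 and 0.40, and the other 27 members tested were not called. In all, 3 of 30 members (10.0%) were called by edgeR's quasi-likelihood test with Benjamini-Hochberg adjustment over all genes, at a threshold of 0.05. The share over all 13003 genes tested was 10.9% (6.82% higher and 4.08% lower), so the kinesins were called about as often as genes at large. Of the 30 members, 20 had a negative log2 fold change, and the median was -0.11, against -0.00050 over all genes. An unadjusted p below 0.05 was found for 8 members (26.7%) and for 22% of all genes. The group ranges did not overlap for 1 of 30 members, Kif2a, and for 3.90% of all genes.

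Kif2a (chromosome 13, 106958996 to 107022126) had a lowest, median and highest level of 114, 151 and 161 CPM in c-Myc inhibitor embryos, against 166, 180 and 223 CPM in control embryos. Every treated library was below every control. Its log2 fold change was -0.41 (edgeR adjusted p = 0.00560, SE 0.096, n = 7 each), the call was kept with any 1 of the 14 libraries left out, and the Kif2a promoter shown above held none of the motifs searched. Dimt1, which shares 19.2% of the Kif2a exon bases on the other strand, was at 9.08 ± 2.01 CPM in c-Myc inhibitor embryos and 12.9 ± 3.45 in control embryos (SD) and was not called.

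Kif23 had levels of 428, 682 and 809 CPM in c-Myc inhibitor embryos (lowest, median, highest) and of 730, 828 and 904 CPM in control embryos. The treated libraries were spread widely: replicates 3, 5, 7 and 8 were at 682, 515, 428 and 477 CPM, below all controls, while replicates 1, 2 and 4 were at 746, 764 and 809 CPM, within the control range. The log2 fold change was -0.36 (edgeR adjusted p = 0.0461, SE 0.12). The call was lost in 10 of 14 fits that left out 1 library, with log2 fold changes from -0.43 to -0.29 over all settings tried and adjusted p up to 0.108.

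Kif20a (chromosome 18, 34624613 to 34633277) went the other way, with levels of 143, 183 and 223 CPM in c-Myc inhibitor embryos and of 87.6, 148 and 157 CPM in control embryos. The ranges overlapped through treated replicate 8 alone, at 143 CPM, and the lowest control, replicate 8 at 87.6 CPM, stood well below the others. The log2 fold change was 0.40 (edgeR adjusted p = 0.0242, SE 0.12). It was 0.32 without control replicate 8 (adjusted p = 0.0350), and the call was lost without treated replicate 7 (0.35, adjusted p = 0.0675) or control replicate 1 (0.38, adjusted p = 0.0566). Treated replicate 7 had both the highest Kif20a and the lowest Kif23. Cdc23, which shares 29.3% of the Kif20a exon bases on the other strand, was at 6.17 ± 2.29 CPM in c-Myc inhibitor embryos and 5.33 ± 2.09 in control embryos (SD) and was not called.

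**Figure D3:**
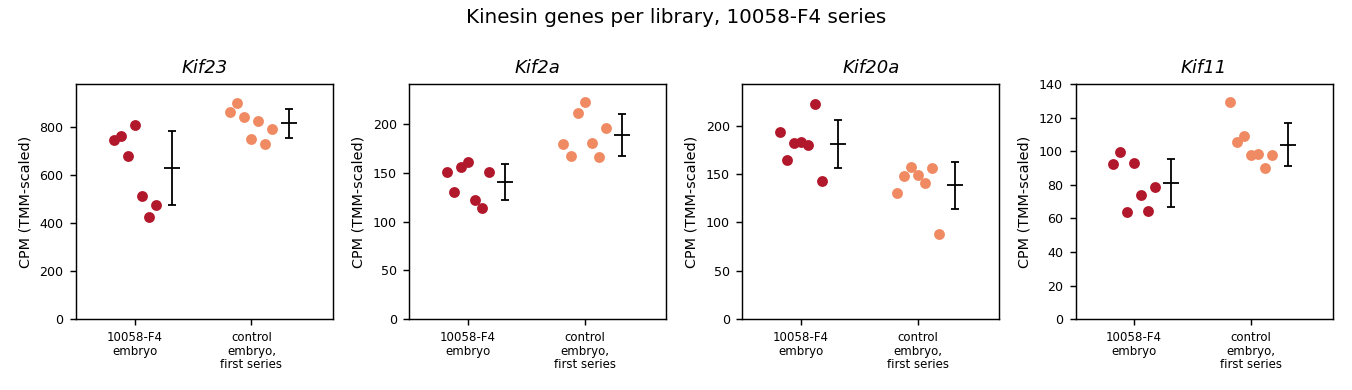
Level of Kif23, Kif2a, Kif20a and Kif11 in each library of the first series, in CPM with TMM-scaled totals, c-Myc inhibitor embryos to the left of control embryos. Each point is a library, and lines with bars are the mean and SD (n = 7 each). The groups are separate for Kif2a, with 161 CPM as the highest treated library and 166 CPM as the lowest control.

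Kif11 (chromosome 19, 37376403 to 37421859), the target of many antimitotic compounds, fell just short of the threshold. Its levels were 64.0, 78.6 and 99.7 CPM in c-Myc inhibitor embryos and 90.0, 98.0 and 129 CPM in control embryos, with 3 treated libraries inside the control range. The log2 fold change was -0.35 (edgeR adjusted p = 0.0541, SE 0.12), and it was called by DESeq2 (adjusted p = 0.0177), by limma voom (adjusted p = 0.0384) and with RLE scaling (adjusted p = 0.0409). Kif11 stayed uncalled in 14 of 20 settings other than the main fit, with adjusted p up to 0.264 over all settings tried. It was called in 3 of 14 fits that left out 1 library. Kif18a had levels of 59.2, 72.8 and 85.5 CPM in c-Myc inhibitor embryos and of 69.3, 82.8 and 135 CPM in control embryos, a log2 fold change of -0.37 (edgeR adjusted p = 0.0948, SE 0.14). By DESeq2 it too was called, at an adjusted p of 0.0443, while it stayed uncalled in 18 of 20 settings.

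Kif18b had 29.4, 38.5 and 46.3 CPM in c-Myc inhibitor embryos and 35.2, 46.0 and 69.6 CPM in control embryos, with overlapping ranges. Its log2 fold change of -0.34 was about as large as that of Kif11 (edgeR unadjusted p = 0.0319, adjusted p = 0.170). Kif15 stood at 7.82 ± 2.76 CPM in c-Myc inhibitor embryos and 8.73 ± 3.67 in control embryos (SD) and had a wide 95% interval, -0.81 to 0.51. Kif4, on chromosome X, had 244, 253 and 311 CPM in c-Myc inhibitor embryos and 195, 247 and 284 CPM in control embryos, and Pdzd11 shares 15.1% of its exon bases on the other strand. Kif22 had 102, 122 and 157 CPM in c-Myc inhibitor embryos and 104, 138 and 158 CPM in control embryos. The log2 fold changes were 0.09 for Kif4 (95% interval -0.08 to 0.26) and -0.11 for Kif22 (-0.32 to 0.09), and the ranges overlapped almost fully for both. Among the spindle and chromosome motors 5 of 6 had a negative log2 fold change and 0 of 6 were called, against 10.9% of all genes.

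The midzone motors beside Kif23 and Kif20a were not called either. Kif14 had 498, 545 and 636 CPM in c-Myc inhibitor embryos and 552, 625.4 and 712 CPM in control embryos, a log2 fold change of -0.19 (edgeR adjusted p = 0.149, SE 0.078). Kif20b had 290, 296 and 323 CPM in c-Myc inhibitor embryos and 165, 288 and 339 CPM in control embryos. Its treated libraries had the smallest spread of any member in that group above 50 CPM, a coefficient of variation of 3.64%, while control replicate 8 was at 165 CPM, the library that was also lowest for Kif20a. The log2 fold change of Kif20b was 0.11 (95% interval -0.10 to 0.32). Kif2c, the depolymeriser at kinetochores, had 95.9, 105 and 159 CPM in c-Myc inhibitor embryos and 103, 115 and 137 CPM in control embryos, a log2 fold change of -0.06 (-0.27 to 0.16).

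None of the 12 cargo motors tested passed, against 10.9% of all genes, with log2 fold changes of -0.42 to 0.30 and a median of -0.05. Kif17 had 171, 230 and 262 CPM in c-Myc inhibitor embryos and 217, 263 and 326 CPM in control embryos. Kif3a had 57.5, 63.9 and 86.5 CPM in c-Myc inhibitor embryos and 57.4, 70.0 and 87.0 CPM in control embryos. Kif5b had 59.5, 72.4 and 82.6 CPM in c-Myc inhibitor embryos and 64.1, 76.4 and 90.7 CPM in control embryos. Their log2 fold changes were -0.19 for Kif17 (95% interval -0.39 to 0.01), -0.11 for Kif3a (-0.36 to 0.14) and -0.11 for Kif5b (-0.33 to 0.10), and all ranges overlapped. Kif21a, near the limit of detection, had 0.324, 0.372 and 5.68 CPM in c-Myc inhibitor embryos and 0.460, 1.704 and 4.21 CPM in control embryos.

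Genes that work with the kinesins were taken from fixed lists. Of 14 partners at the spindle and midzone 1 was called, against 10.9% of all genes, and 12 had a negative log2 fold change, against 6512 of all 13003 genes. Ect2, which centralspindlin recruits to the midzone, was at 157 ± 29.2 CPM in c-Myc inhibitor embryos and 245 ± 32.8 in control embryos (SD, n = 7 each), with a log2 fold change of -0.63 (edgeR adjusted p = 0.000286). Racgap1, the partner of Kif23 in centralspindlin, was at 131 ± 25.9 CPM in c-Myc inhibitor embryos and 162 ± 17.9 in control embryos and was not called (-0.30, edgeR adjusted p = 0.117). Of 10 light chains and adaptors 1 was higher, against 6.82% of all genes: Rhot1, the mitochondrial receptor for motor adaptors, was at 176 ± 36.5 CPM in c-Myc inhibitor embryos and 93.0 ± 20.2 in control embryos (0.94, edgeR adjusted p = 5.31e-05). Of 5 kinesins that the symbol rule leaves out 1 was higher, again against 6.82% of all genes. It was Kifc3, a minus-end motor, at 75.9 ± 17.7 CPM in c-Myc inhibitor embryos and 50.8 ± 7.41 in control embryos (0.59, edgeR adjusted p = 0.00894). Of 17 dynein and dynactin genes, the opposing motor and its cofactors, 2 were higher, against 6.82% of all genes, and 1 was lower, against 4.08%. Dctn2 (0.65) and Numa1 (0.49) were the higher ones and Dync1i2 (-0.27) the lower one.

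The summed level of oocyte markers was 7201 to 8446 CPM in c-Myc inhibitor embryos and 4198 to 5649 CPM in control embryos. By group mean the largest differences in CPM were those of Gdf9 (1975 against 419) and H1foo (1770 against 565). Bmp15 (1225 against 1391) and Nlrp5 (1033 against 1121) were lower in c-Myc inhibitor embryos, and the remaining markers were higher. The part of these levels in the kinesin differences was not tested. In 1 fit of all 5 groups and 26 libraries, in which the wider spread of the second series enters, none of the 3 calls was kept (edgeR adjusted p = 0.755 for Kif20a, 0.0666 for Kif23 and 0.0627 for Kif2a).

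The second comparison asked what blocking RNA polymerase II did, and no kinesin passed the test. By edgeR 0 of 31 members were called, against 0.0305% of 13133 genes (0.0228% higher and 0.00761% lower, 4 genes in all), and 0 were called by DESeq2 or limma voom. Over all genes DESeq2 called 91 higher and 32 lower, and limma voom 3 higher and 7 lower. An unadjusted p below 0.05 was found for 3 members, Kif11, Kif21a and Kif3c (9.68%), and for 7.51% of all genes. The median log2 fold change of the members was -0.10, also with Kif21a and Kif3c at their bounds (below), and that of all genes was -0.014. The spread between libraries was larger here than in the first series, with a biological coefficient of variation of 1.12 against 0.555.

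Kif11 was the one member whose groups did not overlap (1 of 31, against 2.79% of all genes). It had 93.5, 93.1, 60.5 and 62.3 CPM in alpha-amanitin embryos, against 133, 137, 104 and 114 CPM in control embryos. Every treated library was below every control. The log2 fold change was -0.63 (SE 0.24, unadjusted p = 0.0153 and adjusted p = 0.524 by edgeR). In oocytes, which this series also holds, Kif11 was at 171, 119, 175 and 129 CPM, so alpha-amanitin embryos were below every other library of the series.

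The most abundant members were close to their controls. Kif23 had 678, 723, 602 and 695 CPM in alpha-amanitin embryos, 821, 656, 766 and 774 CPM in control embryos and 722, 793, 742 and 785 CPM in oocytes. Kif14 had 455, 474, 629 and 439 CPM in alpha-amanitin embryos, 470, 654, 441 and 477 CPM in control embryos and 594, 581, 498 and 475 CPM in oocytes. For Kif23 all 3 ranges overlapped, and for Kif14 a single library was high in each embryo group. The log2 fold changes of alpha-amanitin over control embryos were -0.14 for Kif23 (95% interval -0.39 to 0.10) and -0.01 for Kif14 (-0.33 to 0.30).

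Kif17 had 239, 289, 267 and 308 CPM in alpha-amanitin embryos, 358, 225, 270 and 251 CPM in control embryos and 212, 256, 207 and 215 CPM in oocytes. Kif2a had 172, 175, 229 and 188 CPM in alpha-amanitin embryos, 133, 190, 235 and 233 CPM in control embryos and 176, 152, 202 and 175 CPM in oocytes. Neither shows a separation of the embryo groups, and the log2 fold changes of alpha-amanitin over control embryos were 0.02 for Kif17 (95% interval -0.32 to 0.36) and -0.04 for Kif2a (-0.43 to 0.36). Kif2a, lower under the c-Myc inhibitor, was thus not detectably changed by alpha-amanitin.

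Kif20a, the member that was higher under the c-Myc inhibitor, had the largest coefficient of variation of the members above 50 CPM in alpha-amanitin embryos, 57.6%. It had 125, 143, 189 and 24.7 CPM in alpha-amanitin embryos, 65.7, 127, 154 and 64.2 CPM in control embryos and 145, 131, 149 and 108 CPM in oocytes. Both the highest and the lowest embryo library were treated ones, and the log2 fold change was 0.24 (95% interval -0.57 to 1.05). Kif18a had 88.2, 137, 101 and 74.6 CPM in alpha-amanitin embryos, 89.7, 99.8, 70.8 and 66.1 CPM in control embryos and 85.9, 88.6, 66.8 and 86.2 CPM in oocytes, and all 3 ranges overlapped.

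Kif2c had 155, 117, 54.1 and 175 CPM in alpha-amanitin embryos, 74.7, 82.6, 68.0 and 144 CPM in control embryos and 121, 164, 131 and 147 CPM in oocytes. The lowest treated library, replicate 3, is the one with the lowest total. Kif3a had 60.6, 72.1, 34.7 and 70.9 CPM in alpha-amanitin embryos, 27.4, 53.0, 51.5 and 86.8 CPM in control embryos and 53.0, 47.3, 49.6 and 39.8 CPM in oocytes. Kif5b had 36.9, 61.6, 16.5 and 83.7 CPM in alpha-amanitin embryos, 37.5, 72.7, 48.5 and 72.2 CPM in control embryos and 69.4, 48.6, 56.5 and 46.4 CPM in oocytes. For all of these the embryo groups overlapped and the oocyte libraries lay closest together.

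**Figure D4:**
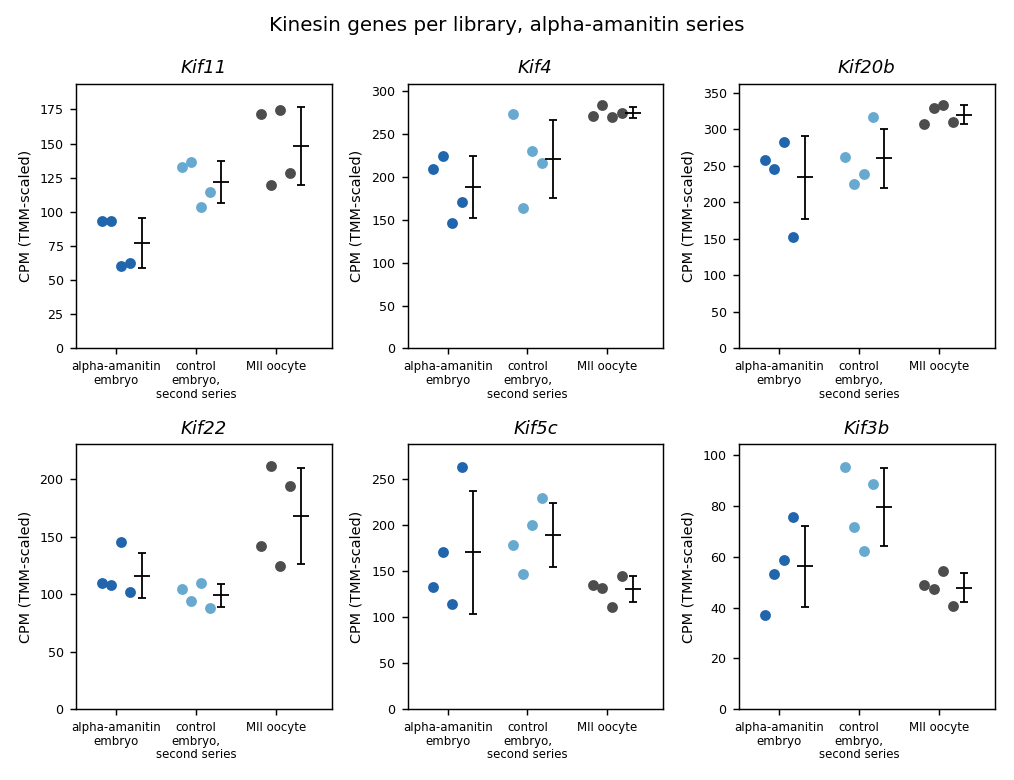
Level of Kif11, Kif4, Kif20b, Kif22, Kif5c and Kif3b in each library of the second series, in CPM with TMM-scaled totals, with alpha-amanitin embryos to the left, control embryos in the middle and MII oocytes to the right. Each point is a library, and lines with bars are the mean and SD (n = 4 each). All alpha-amanitin embryos lie below all other libraries for Kif11, and all oocytes lie above all control embryos for Kif22.

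Kif21a (chromosome 15, 90933276 to 91049948) was detected in some groups and not in others, at levels near the limit. It had 7.35, 0.978, 3.85 and 0 CPM in alpha-amanitin embryos, 0 CPM in all 4 control embryos and 1.61, 3.81, 0 and 0.958 CPM in oocytes. Kif3c, a further motor known from neurons, had 1.53, 2.59, 0 and 0 CPM in alpha-amanitin embryos, 0 in all 4 control embryos and 0, 2.72, 1.84 and 1.81 CPM in oocytes. The floor of 3 counts over the 4 control libraries was 0.0402 CPM. The observed mean of alpha-amanitin embryos was 75.7-fold that floor for Kif21a and 25.6-fold for Kif3c. As bounds, these ratios cover counting error in the controls and not the spread between libraries. Neither gene was called (edgeR adjusted p = 0.524 for both). The bound for Kif21a was 40.0-fold without alpha-amanitin replicate 1, and that for Kif3c 12.7-fold without replicate 2. The higher Kif21a levels, 7.35 and 3.85 CPM, were those of replicates 1 and 3, which also had the most counts in genes not seen in oocytes, and the part of that in the result was not tested. With these counts, a message missed at the amplification of small amounts of RNA and a message absent from the embryo cannot be told apart. For Kif3c an antisense gene, 1110002L01Rik, covers 35.3% of its exon bases on the other strand.

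The third comparison set control embryos at 10 h against the MII oocytes from which embryos arise. No kinesin was called by edgeR (0 of 31, against 2.89% of 13133 genes, 1.11% higher and 1.78% lower), 6 had an unadjusted p below 0.05 (19.4%, against 14.1% of all genes), 1 was called by DESeq2 (Kif22) and 0 by limma voom. Over all genes DESeq2 called 285 higher and 485 lower, and limma voom 280 higher and 660 lower. The ranges of control embryos and oocytes did not overlap for 5 of 31 members, Kif21b, Kif22, Kif3b, Kif5c and Kif9, and for 14.4% of all genes. The median log2 fold change of the members was -0.07, also with Kif21a and Kif3c at their bounds, and that of all genes -0.028. With shares of counts alone, less of a message and a larger total of other messages cannot be told apart.

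Kif22 (chromosome 7, 127027729 to 127042471) had 104, 93.8, 110 and 87.8 CPM in control embryos, against 142, 211, 125 and 195 CPM in oocytes. Every embryo library was below every oocyte library. The log2 fold change was -0.77 (edgeR adjusted p = 0.0707, SE 0.22), it was -0.76 by DESeq2 (adjusted p = 0.0409), and it was called by edgeR without alpha-amanitin replicate 3 in the shared fit (-0.77, adjusted p = 0.0295). That was 1 of 12 fits that left out 1 library. Kif22 stayed uncalled in 15 of 19 settings, with adjusted p up to 0.253 over all settings tried. In alpha-amanitin embryos Kif22 was at 110, 108, 145 and 102 CPM. Kif9, known from the sperm flagellum, had 3.26, 5.34, 5.73 and 5.72 CPM in control embryos, against 13.6, 8.21, 11.5 and 17.8 CPM in oocytes, a separation at low levels (-1.36, 95% interval -3.82 to 1.10).

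Several cargo motors were separate in the other direction. Kif5c had 179, 147, 200 and 229 CPM in control embryos, against 135, 132, 111 and 144 CPM in oocytes. Kif3b had 95.5, 71.8, 62.1 and 88.8 CPM in control embryos, against 48.8, 47.4, 54.4 and 40.6 CPM in oocytes. Kif21b, which restrains microtubule growth, had 50.7, 31.7, 96.3 and 40.4 CPM in control embryos, against 31.5, 26.9, 23.0 and 26.1 CPM in oocytes. All embryo libraries were above all oocyte libraries for each of these, with log2 fold changes of 0.52 for Kif5c (edgeR adjusted p = 0.327, SE 0.24), 0.72 for Kif3b (adjusted p = 0.277, SE 0.31) and 1.02 for Kif21b (adjusted p = 0.335, SE 0.48), and none was called.

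Summed levels of the functional groups are given as a description, and they hold the members just named, Kif5c, Kif3b and Kif21b among the cargo motors and Kif22 among the spindle motors. The 15 cargo motors summed to 971.5 to 1106 CPM in control embryos, against 796 to 858 CPM in oocytes. The 6 spindle and chromosome motors summed to 540 to 668 CPM in control embryos, against 713 to 756 CPM in oocytes. No member of either group was called. The 4 midzone motors summed to 1598 to 1661 CPM in control embryos, against 1678 to 1834 CPM in oocytes. In alpha-amanitin embryos the cargo sum was 776 to 1184 CPM, the spindle sum 459 to 630 CPM and the midzone sum 1311 to 1704 CPM.

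Alpha-amanitin embryos were also compared with the same 4 oocyte libraries, so the 2 comparisons with oocytes are not independent and their values stand side by side. Here too 0 of 31 members were called by edgeR, against 1.71% of 13133 genes (0.442% higher and 1.27% lower). An unadjusted p below 0.05 was found for 4 members, Kif11, Kif4, Kif20b and Kif22 (12.9%, against 10.6% of all genes), 1 was called by DESeq2 (Kif11) and 0 by limma voom. Over all genes DESeq2 called 204 higher and 312 lower, and limma voom 141 higher and 401 lower. The ranges did not overlap for 4 of 31 members, Kif11, Kif4, Kif20b and Kif1c, and for 11.5% of all genes. The median log2 fold change was -0.14, against -0.037 over all genes.

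Kif11 averaged 77.4 ± 18.4 CPM in alpha-amanitin embryos and 148 ± 28.5 in oocytes (SD, n = 4 each), with a log2 fold change of -0.93 (edgeR adjusted p = 0.0544, SE 0.24). By DESeq2 it was -0.91 (adjusted p = 0.00834), while for control embryos over oocytes it was -0.30 (edgeR adjusted p = 0.774, SE 0.24). For alpha-amanitin embryos over oocytes Kif11 stayed uncalled in 17 of 19 settings. Kif4 (chromosome X, 100625737 to 100727214) had 210, 225, 146 and 171 CPM in alpha-amanitin embryos, 273, 164, 231 and 216 CPM in control embryos and 271, 284, 270 and 275 CPM in oocytes. All alpha-amanitin embryos were below all oocytes, and 1 control embryo reached the oocyte range. The log2 fold changes were -0.54 for alpha-amanitin embryos over oocytes (edgeR adjusted p = 0.210, SE 0.19) and -0.33 for control embryos over oocytes (adjusted p = 0.531, SE 0.19).

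Kif20b (chromosome 19, 34922361 to 34975745) had 258, 245, 283 and 152 CPM in alpha-amanitin embryos, 261, 224, 238 and 317 CPM in control embryos and 307, 329, 333 and 310 CPM in oocytes. The oocytes were the tightest group and lay above all alpha-amanitin embryos. The log2 fold changes were -0.44 for alpha-amanitin embryos over oocytes (edgeR adjusted p = 0.360, SE 0.19) and -0.31 for control embryos over oocytes (adjusted p = 0.575, SE 0.19). The separation of Kif1c, a motor of Golgi and podosome transport, came with 1 empty library: it had 15.0, 13.1, 0 and 14.1 CPM in alpha-amanitin embryos, against 15.5, 16.2, 23.8 and 19.8 CPM in oocytes, and the empty one was replicate 3, with the lowest total.

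**Figure D5:**
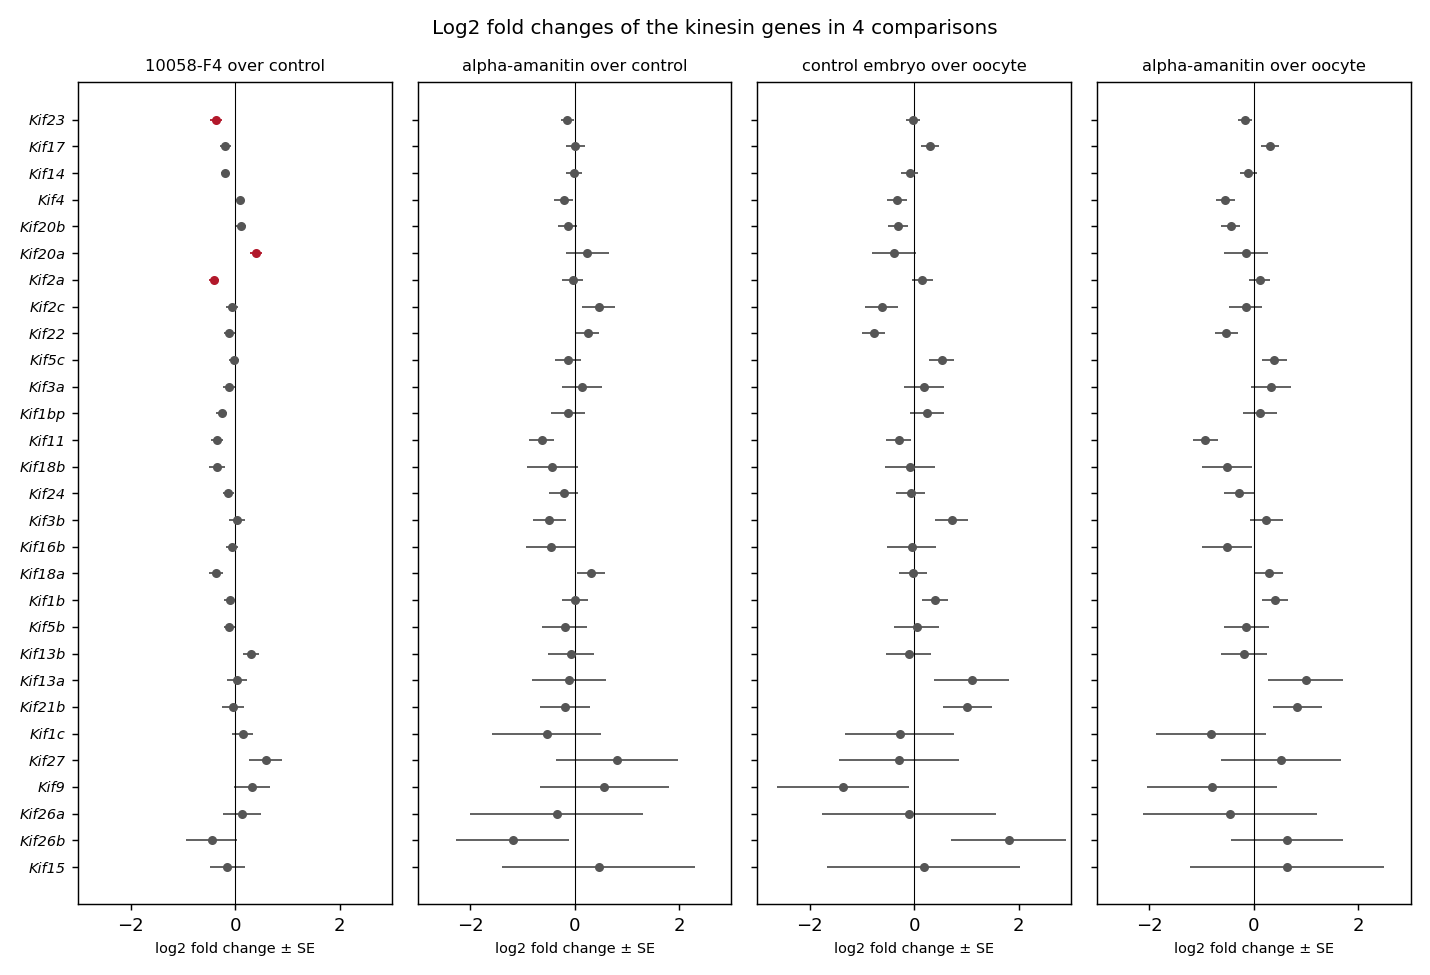
Log2 fold change of 29 summarised kinesin genes in 4 comparisons, from left to right c-Myc inhibitor over control embryos, alpha-amanitin over control embryos, control embryos over oocytes and alpha-amanitin embryos over oocytes. Points are edgeR estimates, bars are the SE and red points passed the threshold. Kif21a and Kif3c are left out because they had no count in any control embryo of the second series, and the red points are Kif23, Kif20a and Kif2a in the first panel.

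Of the fixed lists, 0 of 14 partners at the spindle and midzone were called in each of the 3 comparisons of the second series. The count was also 0 of 10 for light chains and adaptors. The shares of 13133 genes called were 0.0305%, 2.89% and 1.71%, in the order of the comparisons above, so these counts were near those shares. Of 5 kinesins outside the symbol rule 1, Kifc3, was lower in control embryos than in oocytes, against 1.78% of all genes. It was at 22.9 ± 8.01 CPM in control embryos and 85.4 ± 23.7 in oocytes (SD, n = 4 each), with a log2 fold change of -1.90 (edgeR adjusted p = 0.00790). It was at 45.7 ± 12.5 CPM in alpha-amanitin embryos. Of 18 dynein and dynactin genes 1 was higher than in oocytes, against 1.11% of all genes for control and 0.442% for alpha-amanitin embryos. It was the dynein intermediate chain Dync1i2, at 335 ± 56.3 CPM in control embryos and 205 ± 31.7 in oocytes, a log2 fold change of 0.69 (edgeR adjusted p = 0.0302). In alpha-amanitin embryos it was at 336 ± 39.6 CPM, a log2 fold change over oocytes of 0.72 (adjusted p = 0.0355).

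The effects of the inhibitors, each against the controls of its own series, were compared in 1 fit of the 22 embryo libraries. By edgeR 1 of 31 members differed, against 1.04% of 15790 genes (0.678% higher and 0.367% lower), and 3 had an unadjusted p below 0.05 (9.68%, against 17.3% of all genes). The median of the members was 0.09 and that of all genes -0.026. The member was Kif21a, with a fitted difference of -9.48 on the log2 scale, c-Myc inhibitor effect minus alpha-amanitin effect (edgeR adjusted p = 0.0475, SE 2.37). This value rests on the 4 control embryos without a count and its size depends on how such zeros are fitted. The call was lost in 18 of 22 fits that left out 1 library and by limma voom (adjusted p = 0.0871). For Kif23 the difference was -0.21 (95% interval -0.58 to 0.16), for Kif2a -0.37 (-0.78 to 0.04) and for Kif20a 0.17 (-0.67 to 1.01), so none of the members called under the c-Myc inhibitor was shown to respond differently to alpha-amanitin. The difference for Kif18a was -0.67 (edgeR adjusted p = 0.210, SE 0.28).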

How the data were processed

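Libraries of MII oocytes and 1-cell embryos were made, per the labels' protocols, with SMARTer's stranded Pico Input kit for total RNA, version 2, which amplifies small amounts of total RNA. The deposited table gives each of 55401 Ensembl IDs a whole-number raw count in each of 26 libraries. The submitters' processing notes name cutadapt 1.7.1, the aligner STAR 2.5.0a and the build GRCm38. No counting program, strand setting or annotation is given in the sources used, so overlapping and antisense genes cannot be told apart with certainty, and PCR copies were counted as deposited. Sample titles count libraries in separate series, which is the only sign of how the libraries were processed together, and each inhibitor was compared with the controls of its own series.

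Symbols, coordinates and exon lengths came from GENCODE vM21. IDs without a symbol (260) held 0.00563% of counts. Of 42 genes with a Kif symbol, 39 were protein-coding. The pseudogene Kif4-ps had 880 counts, 0.624% of those of Kif4, and Kif22-ps had 0. No 2 libraries held identical values. Tests used edgeR 4.0.16 in R 4.3.3: the quasi-likelihood F test on counts with TMM scaling, filterByExpr (minimum count 10, minimum total 15) and Benjamini-Hochberg adjustment over all genes tested, threshold 0.05. The c-Myc inhibitor contrast used its 14 libraries, the contrasts of the second series came from 1 fit of 12 libraries, and the difference of the effects from 1 fit of 22. Alternatives were DESeq2 1.42.0, limma voom 3.58.1, RLE scaling, no filter, the replicate number as a block, other sets of libraries in the fit, and each library left out in turn. Full values are given for members called in any contrast, the 6 highest per kb and 10 always reported, 14 in all. The members shown beyond these were chosen after their values were seen, for ranges that do not overlap or for sparse counts. The members and gene lists were chosen with earlier results of these data known.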

Additional observations from a re-analysis of the deposited data

Results flagged for a closer look

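A library was set apart where its gap to the nearest other library of its group, relative to the group's range, exceeded Dixon's 95% critical value. For independent values with a normal spread, chance alone gives about 1 in 20. The sets here share libraries and include genes with sparse counts, so that rate need not hold and no excess is read from the count. Libraries were set apart in 14 of 153 member-by-group sets. In c-Myc inhibitor embryos these were Kif16b in replicate 3 (61.6 CPM, others 101 to 115), Kif20b in replicate 8 (322.5 CPM, others 290 to 301), Kif2c in replicate 4 (158.5 CPM, others 95.9 to 112), Kif3c in replicate 5 (2.35 CPM, others 0 to 0.362), and both Kif21a and Kif21b in replicate 1 (5.68 CPM, others 0.324 to 2.21, and 73.9 CPM, others 33.8 to 48.4). In control embryos of the first series, replicate 8 was low for both Kif20a (87.6 CPM, others 130 to 157) and Kif20b (165 CPM, others 275 to 339).

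In alpha-amanitin embryos, Kif1c was at 0 CPM in replicate 3 (others 13.1 to 15.0), the library with the lowest total, and Kif26a at 18.3 CPM in replicate 4 (others 0 to 2.01). In control embryos of the second series, Kif14 was at 654 CPM in replicate 2 (others 441 to 477) and Kif9 at 3.26 CPM in replicate 1 (others 5.34 to 5.73). In MII oocytes, Kif17 was at 256 CPM in replicate 2 (others 207 to 215) and Kif18a at 66.8 CPM in replicate 3 (others 85.9 to 88.6).

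For Kif21a the effect of the c-Myc inhibitor differed from that of alpha-amanitin by edgeR, with a log2 difference of -9.48 (adjusted p = 0.0475), lost in 18 of 22 fits without 1 library.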

How the results depend on the processing

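Of 1454 values of the 14 named members under other settings, 1402 kept their direction and side of the threshold, 36 lost and 16 gained a call, and 0 called values changed sign, while 39 uncalled values had the other sign. Under the c-Myc inhibitor, members called higher and lower were 1 and 2, and 0 and 0 in 1 fit of all 5 groups. With DESeq2 4 were lower (Kif11, Kif18a, Kif23 and Kif2a). Leaving out 1 library gave 0 to 1 higher and 1 to 3 lower. For control embryos over oocytes, members called lower were 0, but 3 in 1 fit of all 5 groups (Kif21a, Kif22 and Kif3c), 1 with these groups only and 1 with DESeq2 (Kif22 in both), and 0 to 1 with 1 library left out. For alpha-amanitin embryos over oocytes they were 0, but 2 in 1 fit of all 5 groups (Kif11 and Kif4) and 1 with DESeq2 (Kif11). For the difference of effects they were 1, but 2 with DESeq2 (Kif21a and Kif3c), 0 with limma voom, 0 without the filter and 0 with the replicate block, and 0 to 1 with 1 library left out. The cause was not tested.

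No pairing by replicate number was detected: correlations of deviations between libraries of a number were -0.039 to 0.044 in the first series and -0.016 to 0.024 in the second. In the first series 2 of 6 libraries correlated best with their own number. Such correlations over all genes tested could miss a weak pairing. With the replicate block the c-Myc inhibitor calls were again 1 higher and 2 lower (0.42 for Kif20a).

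Over all genes, higher and lower calls under the c-Myc inhibitor were 887 and 531, but 266 and 115 in 1 fit of all 5 groups, 859 lower with DESeq2 and 292 lower with the block. For alpha-amanitin over control they were 3 and 1, but 63 and 40 (all 5 groups), 0 and 0 (these groups only, or the block), 91 and 32 (DESeq2), 7 lower (limma voom) and 74 and 15 (no filter). For control embryos over oocytes they were 146 and 234, but 572 and 837, 293 and 471, 285 and 485, and 280 and 660 (all 5 groups, these groups only, DESeq2, limma voom). For alpha-amanitin embryos over oocytes they were 58 and 167, but 329 and 530, 204 and 312, 141 and 401, and 186 and 286 (all 5 groups, DESeq2, limma voom, no filter). For the difference of effects they were 107 and 58, but 413 and 629 (DESeq2), 234 and 209 (no filter) and 35 and 3 (block). Depth limits members near 1 CPM, where 3 counts are up to 0.550 CPM.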
